A study of Mus musculus with 12 samples.

Results

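The semaphorins are a family of secreted and membrane-bound signalling proteins, and 10 of them (Sema3a, Sema3b, Sema3c, Sema3d, Sema3e, Sema4b, Sema4c, Sema5a, Sema6d and Sema7a) were followed here through the transcriptome of an immortalized brown adipocyte line. They were chosen by gene symbol and are 10 of the 20 semaphorin symbols, and of the 48321 genes, listed in the count table. The cells were brown preadipocytes of 1 wild-type newborn mouse on a C57BL/6J background, immortalized with SV40 large T antigen, transduced with a lentivirus carrying either the empty pLEX vector or truncated Sema4B (tSema4B, a Flag-tagged soluble form that mimics the product of ADAM17 cleavage), and selected with puromycin, so that 1 stable line stood for each construct. After differentiation up to day 8 with a hormone cocktail that all groups received, the cells were left unstimulated or exposed to norepinephrine (NE) at 2 μM for 6 h. This gave 4 groups of 3 RNA-seq libraries each, named vector or tSema4B by construct and unstimulated or NE by treatment. As the replicates are described as technical, p-values here measure no more than the spread between these libraries.

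Semaphorins were first known as cues that steer growing axons, and they signal through plexins, which class 3 members usually reach through a neuropilin co-receptor. Class 3 semaphorins are secreted, classes 4 to 6 span the membrane, and Sema7a is held by a lipid anchor, and several of the membrane forms can be released by proteases. In fat tissue they have been studied as signals to nerves, vessels and immune cells as well as to the fat cells themselves.

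Between 2000780 and 5409583 reads per library were counted on genes, with more in the vector than in the tSema4B libraries of the same treatment. All values below are normalised read counts, that is reads per gene divided by the size factor of the library, in which 1 read is worth 0.593 to 1.55. A gene was tested when it reached 10 normalised read counts in at least 3 of the 12 libraries, which 11998 genes did, and it was called when its adjusted p (limma) did not exceed 0.05 and its log2 difference was 1 or more either way. Of the 10 semaphorins, 8 were tested, while Sema3d and Sema7a fell short of the minimum. The labelled cell type was checked on marker genes. All 14 adipocyte markers were detected in the vector libraries, whereas in tSema4B unstimulated libraries Ucp1, the uncoupling protein of brown fat, had no read. The summed adipocyte markers lay between 36080 and 41713 in vector unstimulated, 5764 and 8203 in tSema4B unstimulated, 48656 and 59514 in vector NE and 8048 and 9241 in tSema4B NE libraries. The summed preadipocyte and fibroblast markers went the other way, with 36356 to 36934, 64613 to 75081, 28401 to 31118 and 56953 to 62148. Of the 14 adipocyte markers 13 were called lower in tSema4B cells in both conditions, against 2.71% of all tested genes without NE and 3.73% with NE. Of the 15 preadipocyte and fibroblast markers 4 without NE and 5 with NE were called higher, against 1.11% and 2.03%. The remaining adipocyte marker, Ppargc1a, was higher without a call. In each condition 2 of the 15 were lower without a call. Most of these markers thus move with the tSema4B comparisons below, and their part in any semaphorin value was not tested. In bulk RNA, fewer cells of a type and less RNA per cell cannot be told apart.

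The 10 semaphorins differed widely in level. Per kilobase of exon in the reference gene models, vector unstimulated cells held 20690 ± 1185 (SD, n = 3) normalised read counts of Sema4b and 208 ± 8.14 of Sema3a. Far below them came Sema4c with 10.2, Sema6d with 7.45, Sema3e with 7.36 and Sema3c with 5.71 per kilobase, and the ranges of neighbours among these 4 overlapped. Sema5a followed at 2.65, below every library of Sema3c, and then Sema3b at 1.50, Sema7a at 0.415 and Sema3d at 0.225, where each again overlapped its neighbour. The same pair led in each of the other 3 groups, in which Sema4c, Sema6d, Sema3e and Sema3c again held places 3 to 7 among all 20 semaphorins.

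**Figure D1:**
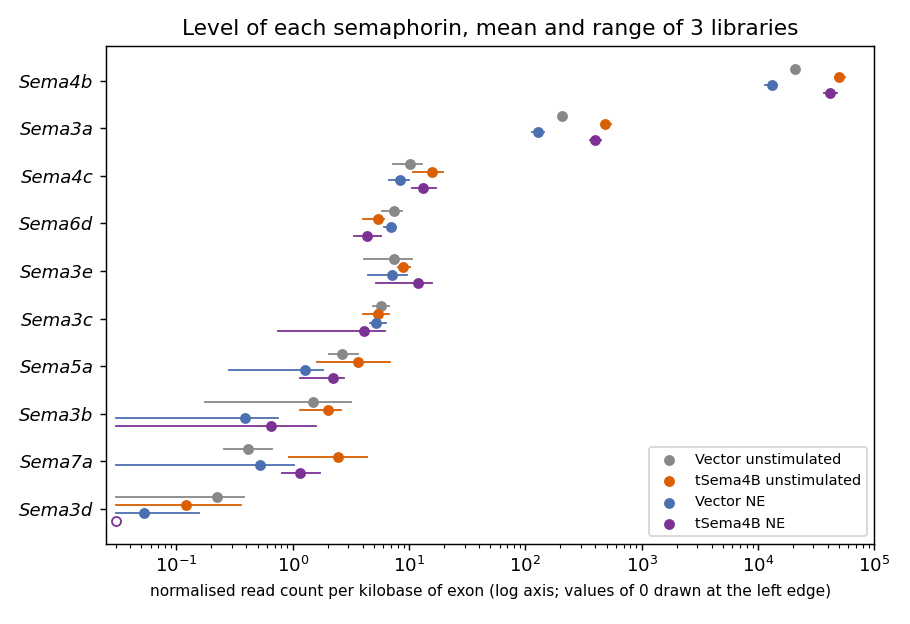
Normalised read counts per kilobase of exon (log axis) of the 10 semaphorins in the 4 groups. Points are the means and lines the ranges of 3 libraries, and values of 0 are drawn at the left edge. Sema4b and Sema3a lie apart from the other members in all 4 groups, at 20690 and 208 in vector unstimulated cells.

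Sema4b is the gene that was transduced, and its values check the labels before any other comparison. In vector unstimulated libraries it had 124008, 110786 and 115596 normalised read counts, and in tSema4B unstimulated libraries 258257, 316850 and 269434. After NE the vector libraries had 81754, 65472 and 75571 and the tSema4B libraries 208760, 223375 and 270694. All tSema4B libraries were thus above all vector libraries, as their labels say. The increase was 2.40-fold without NE (log2 fold change 1.27, SE 0.09, limma adjusted p = 9.45e-10) and 3.15-fold with NE (1.65, SE 0.09, limma adjusted p = 1.21e-11). The vector libraries were not low in absolute terms, since Sema4b took 3.58 to 4.02% of all normalised counts in vector unstimulated and 2.04 to 2.57% in vector NE cells and ranked 2 or 3 among all genes there. In tSema4B cells it took 7.01 to 10.2% and ranked 1. A count per gene joins the reads of the endogenous gene with any from the introduced sequence, so the 2 cannot be told apart.

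Sema3a, a secreted axon repellent, was called in both comparisons of the lines as well. It had 2993, 2768 and 2898 normalised read counts in vector unstimulated libraries against 6238, 7561 and 6207 in tSema4B unstimulated libraries. After NE it had 1998, 1571 and 1830 in vector and 4996, 5342 and 6234 in tSema4B libraries. The groups did not overlap in either condition. Sema3a rose 2.30-fold without NE (log2 fold change 1.20, SE 0.09, limma adjusted p = 5.22e-09) and 3.07-fold with NE (1.62, SE 0.09, limma adjusted p = 4.22e-11). These sizes lie beside those of Sema4b in the same comparisons.

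**Figure D2:**
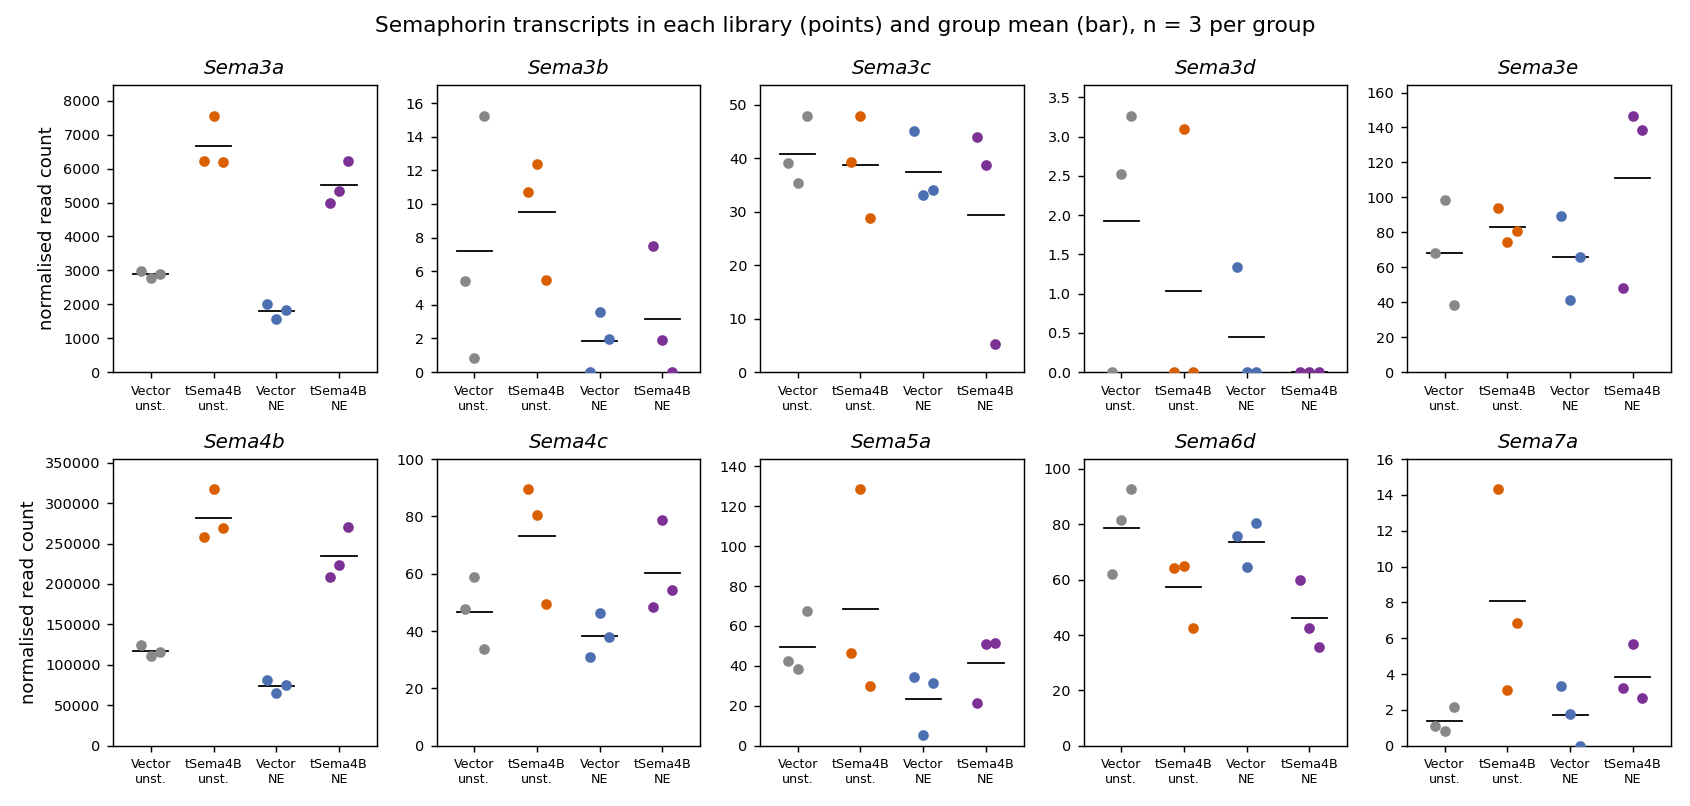
Normalised read counts of the 10 semaphorins in each library (points) with the group mean (bar), 3 libraries per group and a separate axis from 0 for each gene. Sema4b and Sema3a share one pattern over the 4 groups, with all tSema4B libraries above all vector libraries, while for most other members the groups overlap.

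The counts of Sema3a and Sema4b kept almost one ratio in all 12 libraries. Sema3a stood at 2.30 to 2.51% of the count of Sema4b, a range that spanned all 4 groups, while Sema4b itself moved between 65472 and 316850. The mean ratio was 2.47 ± 0.05% (SD, n = 3) in vector unstimulated, 2.37 ± 0.06% in tSema4B unstimulated, 2.42 ± 0.02% in vector NE and 2.36 ± 0.05% in tSema4B NE cells. On the log2 scale the ratio differed by -0.06 between tSema4B and vector without NE (exact permutation test, two-sided, p = 0.2) and by -0.04 with NE (exact p = 0.1). It differed by -0.03 between NE and unstimulated vector cells (exact p = 0.3) and by -0.0036 between NE and unstimulated tSema4B cells (exact p = 0.9). A comparison of 3 libraries with 3 by this test cannot give a p below 0.1, and the adjusted values were 0.4, 0.4, 0.4 and 0.9. With NE every tSema4B library had a slightly lower ratio than every vector library. Over all 12 libraries, exchanged only within a treatment, the ratio was slightly lower in tSema4B than in vector cells (log2 difference -0.05, a change of -3.34%, two-sided exact permutation test, p = 0.01, adjusted p = 0.02, smallest possible p = 0.005). Exchanged only within a line, NE and unstimulated libraries differed by -0.02 (exact p = 0.355, adjusted p = 0.355). These 2 tests were added after the data were seen.

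**Figure D3:**
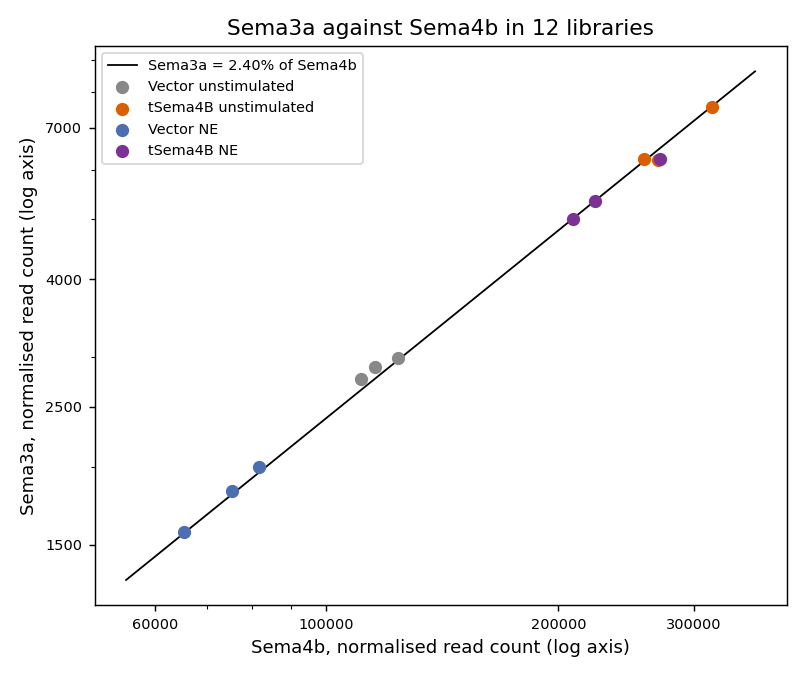
Normalised read count of Sema3a against that of Sema4b in 12 libraries, both axes logarithmic, coloured by group. The line marks Sema3a at 2.40% of Sema4b, the ratio of their reads summed over all libraries, and every library lies within 2.30 to 2.51%.

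No other tested gene followed Sema4b so closely. The standard deviation of the log2 ratio to Sema4b over the 12 libraries was 0.0374 for Sema3a, and 0.193 for Fbln1, a matrix protein and the next closest of 11997 genes. Counting error of the reads alone would give 0.0243, and the ratio varied somewhat more than counting error (chi-square per degree of freedom 2.46). Among 334 genes with a mean of at least 1000 normalised read counts there are 55611 pairs, and 1 of them, Sema3a with Sema4b, had a standard deviation this small. It was also 1 of 666 pairs in which both genes varied with a standard deviation of 0.5 or more. Counting error is larger for genes with fewer reads, and this was not allowed for in these comparisons. Pairs with few reads could hardly reach so small a standard deviation, so the place of this pair rests in part on its depth. By Pearson's correlation of log2 counts over the 12 libraries, the genes most like Sema3a were Sema4b (r = 0.999), Col1a2 (0.994) and Col1a1 (0.984), and those most like Sema4b were Sema3a (0.999), Col1a2 (0.994) and Col1a1 (0.984). Both collagens are fibroblast markers. The correlations run over all 4 groups, and how much of this likeness comes from differences between groups was not tested. The ratio was singled out after its values were seen.

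**Figure D4:**
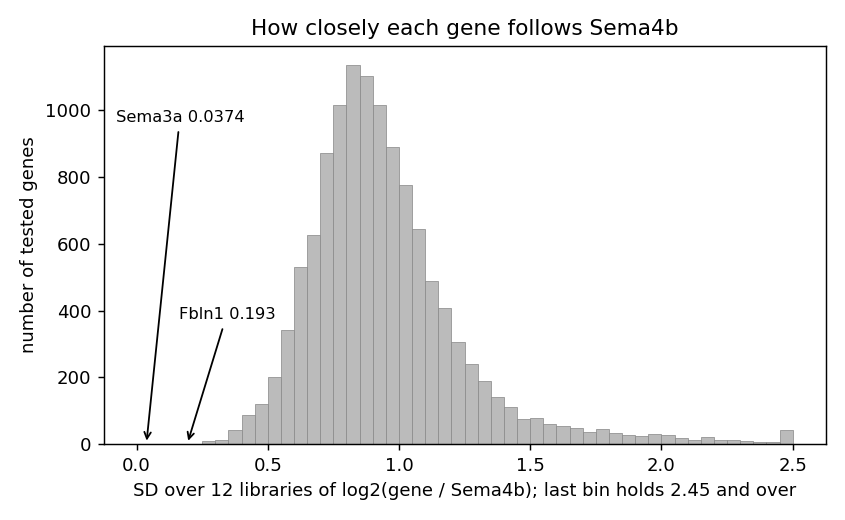
Number of tested genes by the standard deviation, over 12 libraries, of the log2 ratio of the gene to Sema4b (horizontal axis, bins of equal width, the last bin open). Sema3a at 0.0374 stands below Fbln1 at 0.193 and below the rest of the genes. Counting error, which is larger for genes with fewer reads, is not removed.

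Sequences of the pair are given because reads shared between genes would tie their counts. In GENCODE models on GRCm38, Sema4b lies on chromosome 7 (80186841 to 80226527, plus strand) and Sema3a on chromosome 5 (13125414 to 13602565, plus strand). No exon of either overlaps an exon of another gene. The longest run of identical bases between their transcripts was 15 bases, and 13 within coding sequence. The coding run is shown in capitals, with 20 bases on each side, from exon 12 of Sema4b (chr7:80220523-80220535 for the run, plus strand) and exon 14 of Sema3a (chr5:13581063-13581075, plus strand).
Sema4b exon 12: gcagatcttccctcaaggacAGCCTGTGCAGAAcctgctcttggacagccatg
Sema3a exon 14: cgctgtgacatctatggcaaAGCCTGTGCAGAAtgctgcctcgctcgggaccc
Of the other semaphorins, Sema4c and Sema4a shared the longest runs with Sema4b, of 20 bases each. The run of Sema4c is in exon 3 of both genes, at chr7:80212885-80212904 (plus strand) in Sema4b and chr1:36554295-36554314 (minus strand) in Sema4c.
Sema4b exon 3: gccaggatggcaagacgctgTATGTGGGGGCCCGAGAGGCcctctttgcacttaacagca
Sema4c exon 3: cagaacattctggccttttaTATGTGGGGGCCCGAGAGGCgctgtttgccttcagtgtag
The sequence of the transduced construct was not used here. Whether part of the Sema3a reads came from introduced sequence or from reads shared with Sema4b was not tested.

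The promoters of the pair are shown because their counts moved together. The 250 bases before the RefSeq start sites (GRCm38.p6) are at chr5:13396534-13396783 for Sema3a and chr7:80186620-80186869 for the first of 2 entries of Sema4b, both on the plus strand.
Sema3a promoter: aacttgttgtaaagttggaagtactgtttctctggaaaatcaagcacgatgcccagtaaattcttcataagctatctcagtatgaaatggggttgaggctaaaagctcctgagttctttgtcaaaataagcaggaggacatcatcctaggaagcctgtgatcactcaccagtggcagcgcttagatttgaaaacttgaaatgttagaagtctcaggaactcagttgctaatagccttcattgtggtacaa
Sema4b promoter: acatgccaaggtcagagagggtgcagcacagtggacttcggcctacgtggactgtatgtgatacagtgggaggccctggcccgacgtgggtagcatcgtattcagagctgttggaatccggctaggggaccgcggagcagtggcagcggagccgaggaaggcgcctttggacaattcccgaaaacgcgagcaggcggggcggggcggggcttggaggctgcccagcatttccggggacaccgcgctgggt
The Sema3a window holds 2 CpG dinucleotides and the Sema4b window 20. Neither holds the cAMP response element TGACGTCA, which 1.55% of 32851 promoters of this length hold, nor its shorter form TGACG on either strand, which 17.8% hold and which is contained in the longer motif. Of the 9 members with an entry, the short form was found once, before Sema3d. A missing match says only that these letters are not in these windows. The Sema3a window lies inside the GENCODE span of the gene, which begins at 13125414, so starts before the window are not shown. The Sema4b window belongs to the endogenous gene, whose reads could not be told apart from those of the introduced sequence. Whether either promoter had a part in the counts was not tested.

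The comparison of tSema4B with vector cells without NE called 2 of the 8 tested semaphorins higher, Sema4b and Sema3a, and 0 lower, where 1.11% of all tested genes were called higher and 2.71% lower. After NE the same 2 were called higher and 0 lower, against 2.03% and 3.73% of all genes. The libraries of the lines did not overlap for 2 of the 8 without NE and 4 with NE, as was so for 29.4% and 37.7% of all tested genes. The median log2 fold change of the 8 was 0.50 without and 0.64 with NE, and that of all genes -0.0025 and -0.01. Without Sema4b and Sema3a the remaining 6 tested members had medians of 0.30 and 0.46, and 0 of them were called by limma, edgeR or DESeq2, although Sema4c without NE and Sema4c and Sema6d with NE had an unadjusted limma p under 0.05.

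Among the membrane-spanning members, Sema4c, a relative of Sema4b that signals through plexin B2, had 47.8, 58.9 and 33.8 normalised read counts in vector unstimulated and 89.4, 80.4 and 49.3 in tSema4B unstimulated libraries. After NE it had 30.9, 46.2 and 38.0 in vector and 48.3, 78.6 and 54.2 in tSema4B libraries. The groups overlapped without NE and did not overlap with NE. Its log2 fold changes were alike in the 2 conditions, at 0.62 (95% interval 0.00 to 1.24, limma adjusted p = 0.188) and 0.63 (0.01 to 1.25, limma adjusted p = 0.146), and it was called in neither. Exon sequence of Sema4c overlaps that of the opposite-strand gene D430040D24Rik over 334 bases, and without a known strand setting reads there cannot be told apart.

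Sema6d, a ligand and receptor of the plexin A group, ran the other way. It had 61.9, 81.6 and 92.6 normalised read counts in vector unstimulated and 64.4, 65.0 and 42.4 in tSema4B unstimulated libraries. After NE it had 75.9, 64.6 and 80.5 in vector and 60.1, 42.6 and 35.7 in tSema4B libraries, with every tSema4B library below every vector library. The log2 fold change was -0.46 without NE (95% interval -1.0 to 0.08, limma adjusted p = 0.285) and -0.69 with NE (-1.23 to -0.15, limma adjusted p = 0.0639), and it passed the threshold in neither. Sema5a, which carries thrombospondin repeats outside the cell, varied widely between libraries of one group. It had 46.5, 128 and 30.1 normalised read counts in tSema4B unstimulated cells against 42.4, 38.7 and 67.5 in vector unstimulated cells, and 21.4, 51.1 and 51.5 against 34.3, 5.33 and 31.4 after NE. Its log2 fold changes of 0.23 (limma adjusted p = 0.843) and 1.03 (limma adjusted p = 0.202) were not called, and the second ranged from 0.22 to 1.46 with single libraries left out, the lowest without vector NE replicate 2.

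Of the other secreted members, Sema3e, a ligand of plexin D1 that acts on vessels, had 68.4, 98.4 and 38.1 normalised read counts in vector unstimulated and 94.2, 74.3 and 80.8 in tSema4B unstimulated libraries. After NE it had 89.4, 41.5 and 66.1 in vector and 48.3, 147 and 139 in tSema4B libraries. One tSema4B NE library thus stood within the vector range while the other two stood above it. The log2 fold change was 0.37 without NE (limma adjusted p = 0.574) and 0.66 with NE (95% interval -0.10 to 1.42, limma adjusted p = 0.221), and without tSema4B NE replicate 1 the latter became 1.17 and was called (limma adjusted p = 0.0155).

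Sema3c had 39.1, 35.3 and 47.9 normalised read counts in vector unstimulated and 39.3, 48.0 and 28.8 in tSema4B unstimulated libraries, with 45.0, 33.2 and 34.0 against 44.0, 38.8 and 5.29 after NE. The last library, tSema4B NE replicate 3, was the lowest of the 12 and held 4 reads. The log2 fold changes were -0.09 (limma adjusted p = 0.936) and -0.76 (limma adjusted p = 0.305), and the second turned to 0.15 without that library. Sema3b was near the limit of detection, with 5.43, 0.84 and 15.2 normalised read counts in vector unstimulated, 10.7, 12.4 and 5.48 in tSema4B unstimulated, 0, 3.56 and 1.96 in vector NE and 7.51, 1.89 and 0 in tSema4B NE libraries. Its intervals ran from -1.17 to 2.77 without NE and from -1.68 to 2.26 with NE on the log2 scale, so a change of the size seen for Sema3a was not detectable in it at this depth.

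The 2 members under the minimum were counted in single reads. Sema7a, a ligand of plexin C1 and integrins, had 1.09, 0.84 and 2.18 normalised read counts in vector unstimulated and 14.3, 3.09 and 6.85 in tSema4B unstimulated libraries, which are 1, 1 and 2 reads against 12, 2 and 5. It had 3.36, 1.78 and 0 in vector NE and 3.22, 5.68 and 2.64 in tSema4B NE libraries. The unstimulated groups did not overlap, yet with all 22569 genes that have a read in the fit the difference was not called (log2 fold change 1.78, limma adjusted p = 0.210), and a fitted size at so few reads depends on the pseudocount. Sema3d had 0, 2.52 and 3.27 in vector unstimulated, 0, 3.09 and 0 in tSema4B unstimulated and 1.34, 0 and 0 in vector NE libraries, and no read in the tSema4B NE libraries, where each count of 0 allows up to 3 reads.

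**Figure D5:**
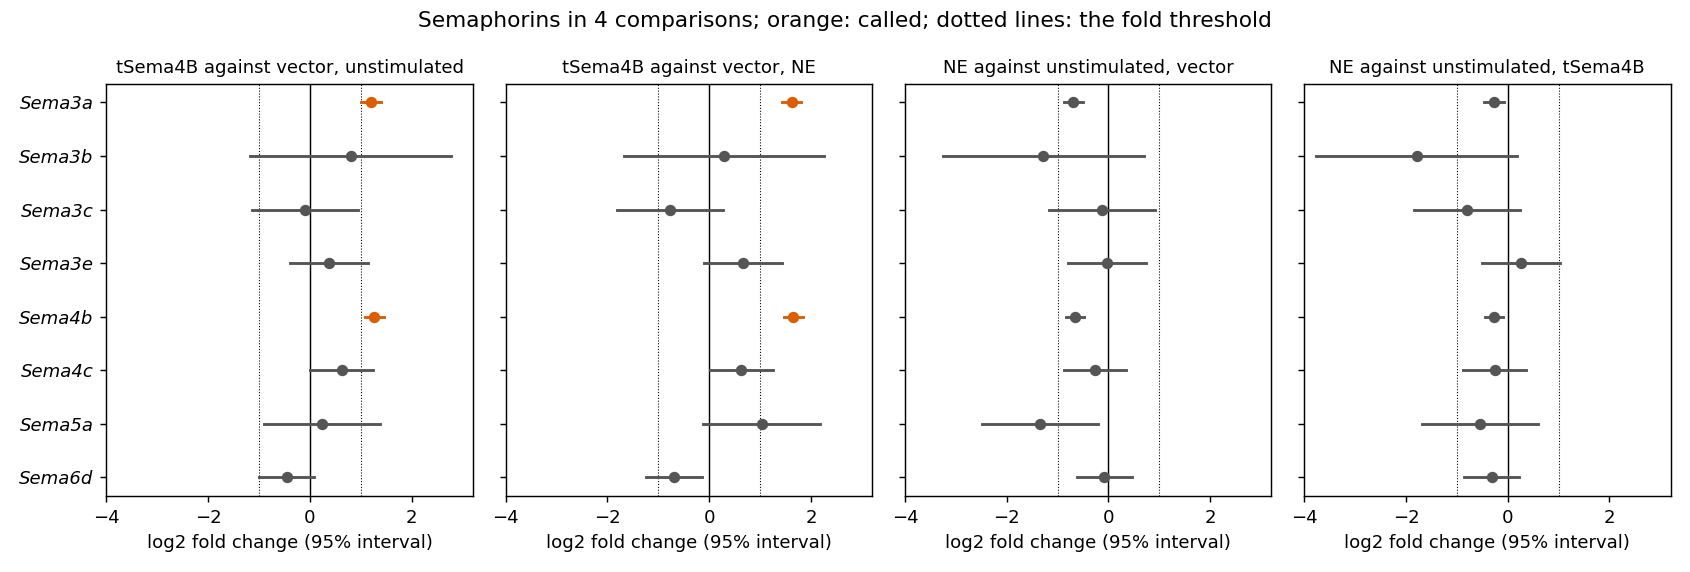
Log2 fold changes of the 8 tested semaphorins with 95% intervals in the 4 comparisons of 2 groups, with called changes in orange and the fold threshold dotted. Sema4b and Sema3a are called in both comparisons of tSema4B with vector cells, and no member is called in the comparisons of NE with unstimulated cells.

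Exposure to NE called 0 of the 8 tested semaphorins in either direction in vector cells, where 1.66% of all tested genes were called higher and 0.975% lower. It called 0 in tSema4B cells as well, against 1.31% and 0.758% of all genes. In vector cells all 8 had lower means of log2 counts after NE, as did 6250 of the 11998 tested genes. The median log2 fold change of the 8 was -0.46 against -0.02 for all genes. Without Sema4b and Sema3a, whose counts kept almost one ratio, the median of the remaining 6 was -0.19. Sema3e and Sema6d turned sign here with single libraries left out. Sema3b, one of the 8, passed the minimum for a test only through unstimulated libraries. Its lower value after NE was thus favoured by the filter and lends no weight to the count of 8 or to these medians. The libraries did not overlap for 3 of the 8, as for 33.3% of all tested genes. Neither edgeR nor DESeq2 called a member here, and 3 of the 8 in vector cells and 2 in tSema4B cells had an unadjusted limma p under 0.05. Sema4b and Sema3a both passed the adjusted p there without reaching the fold threshold, while 4.78% of all genes were lower by the adjusted p alone. They stood at -0.66 (95% interval -0.84 to -0.47, limma adjusted p = 2.86e-05) and -0.69 (-0.88 to -0.49, limma adjusted p = 3.53e-05), and their groups did not overlap. Sema5a was lower in every NE library of vector cells too, at -1.34 (95% interval -2.48 to -0.20), but its spread was wide (limma adjusted p = 0.129), and the value ranged from -1.77 to -0.54 with single libraries left out, the smallest in size without vector NE replicate 2. Sema3b at -1.28, Sema4c at -0.26, Sema3c at -0.12, Sema6d at -0.08 and Sema3e at -0.02 overlapped between conditions. Outside the family Ucp1 was called higher after NE in both lines, by 4.42 on the log2 scale in vector cells (limma adjusted p = 3.79e-08) and from no read in tSema4B cells (limma adjusted p = 8.46e-10).

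In tSema4B cells 7 of the 8 had lower and 1, Sema3e, had higher means after NE, where 6061 of the 11998 tested genes were lower. All groups overlapped, where 20.7% of all tested genes did not overlap. The 7 include Sema3b, which passed the minimum for a test only through unstimulated libraries. The direction of Sema3b after NE lends no weight to the count of 7 or to the medians below. The log2 fold change was -0.27 for Sema4b (limma adjusted p = 0.0760), -0.27 for Sema3a (limma adjusted p = 0.0925), -1.79 for Sema3b, -0.79 for Sema3c, -0.55 for Sema5a, -0.31 for Sema6d, -0.26 for Sema4c and 0.27 for Sema3e. The median of the 8 was -0.29 against -0.0048 for all genes, and that of the 6 without Sema4b and Sema3a was -0.43. Whether the response to NE differed between the lines was tested as an interaction (called on the adjusted p alone), which was called for 3 of the 11998 genes (0.0250%) and for no semaphorin. It was 0.39 for Sema4b (95% interval 0.13 to 0.65, limma adjusted p = 0.259) and 0.42 for Sema3a (0.14 to 0.69, limma adjusted p = 0.255).

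Of the 10 semaphorins outside the list, 5 were tested. Sema4a, a membrane-spanning member first studied in immune cells, was called lower in tSema4B than in vector cells after NE, with 9.65, 13.3 and 1.32 against 23.5, 35.0 and 19.0 normalised read counts (log2 fold change -1.88, SE 0.54, limma adjusted p = 0.0157). Without NE it was lower too, with 17.9, 12.4 and 26.0 against 27.1, 37.0 and 40.3. These groups did not overlap, but the difference was not called (log2 fold change -0.90), and neither was the interaction. The call after NE was lost without tSema4B NE replicate 3 (-1.08, limma adjusted p = 0.0968) and without vector NE replicate 2 (-1.65, limma adjusted p = 0.0832), and it was just missed with no filter on low values (limma adjusted p = 0.0528). No other of these 5 was called in the 4 comparisons.

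Of 16 receptor genes, 12 were tested. Plxnb1, a plexin that binds class 4 semaphorins, was called higher in tSema4B cells after NE, with 45.0, 30.3 and 33.0 normalised read counts against 5.38, 16.6 and 9.82 (log2 fold change 1.78, SE 0.43, limma adjusted p = 0.00500). It was higher without NE too, with 40.5, 29.4 and 43.8 against 11.9, 24.4 and 10.9. These groups did not overlap, but the difference was not called (log2 fold change 1.29), and neither was the interaction. Plxnb1 was the 1 receptor called in these 4 comparisons and kept its call after NE in all 16 alternatives. With the adjusted p alone, 4 of the 12 receptors were higher and 0 lower without NE, where 5.64% of all tested genes were higher and 7.39% lower, and 5 and 0 with NE, where 9.79% and 11.2% were. Among them was Nrp1, the neuropilin through which Sema3a signals, at 0.89 and 0.87 (limma adjusted p = 9.52e-06 and 1.05e-05).

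Of 10 processing enzymes, 9 were tested. Pcsk6, a proprotein convertase, was called lower in tSema4B cells after NE, with 2.14, 6.63 and 6.61 normalised read counts against 19.5, 21.9 and 20.3 (log2 fold change -1.93, SE 0.55, limma adjusted p = 0.0155). Without NE it had 9.53, 6.19 and 9.58 against 10.9, 5.89 and 18.5, which overlap, and was not called. Pcsk6 passed the minimum for a test only through vector libraries, so the filter favoured this direction and nothing is read from the call. The adjusted p rose to 0.0530 to 0.0650 without any one of vector NE replicate 2, vector NE replicate 3 and tSema4B NE replicate 1, and to 0.0552 with no filter on low values (limma). Adamts1, a secreted metalloproteinase, was called lower after NE in vector cells, with 734, 533 and 642 against 1319, 1428 and 1221 (-1.06, SE 0.11, limma adjusted p = 1.68e-06), and without vector NE replicate 2 it stood at -0.94, inside the fold threshold. In tSema4B cells Adamts1 was also lower after NE, with 1025, 1412 and 1143 against 2241, 2350 and 2155, but was not called. Of 26 intracellular effectors, 23 were tested, and Limk1, the kinase that phosphorylates cofilin, was called higher after NE in both lines. It had 84.7, 73.5 and 93.0 against 29.3, 33.6 and 33.8 in vector cells (1.35, SE 0.30, limma adjusted p = 0.00482) and 42.9, 81.4 and 112 against 29.8, 26.3 and 31.5 in tSema4B cells (1.30, SE 0.30, limma adjusted p = 0.00925). The second call was lost without tSema4B NE replicate 3 (limma adjusted p = 0.0680) and in a fit of only the 6 libraries compared (limma adjusted p = 0.0730). The calls with the fold threshold stand beside the shares of all genes given above for each comparison, and nothing is read from them about the lists as wholes.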

How the data were processed

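RNA of cultured brown adipocytes was made into full-length cDNA (SMART-Seq2) and single-end Nextera libraries. After FastQ Screen had removed reads of other species, the authors aligned the rest to mm10 (GRCm38.p4) with STAR 2.7.9a, obtained gene counts with HTSeq and scaled the counts with DESeq2, as the paper's methods and the submitters' processing notes state. The signal the authors deposited is thus a normalized read count per gene. The annotation, strand setting and handling of multi-mapping reads are not given in the sources used here. The 12 libraries were grouped by their labels, and all columns of the table were used.

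Values were log2-transformed with a pseudocount of 1, on which fold changes of low genes depend. Sema4a in tSema4B against vector cells after NE stood at -1.88, at -2.01 with a pseudocount of 0.5 and at -1.03 with 10. By edgeR it was -1.61. One limma 3.58.1 model (R 4.3.3) of the 4 groups with variances that follow abundance was fitted to the 11998 genes with at least 10 in at least 3 libraries, with two-sided tests and Benjamini-Hochberg adjustment over all of them. Other designs and settings were computed as alternatives, among them a pseudocount of 0.5 or 10, no filter or one at 50, rescaled totals, adjusted p alone, a fit of only the 6 libraries of a comparison, a replicate block and each library left out. Dividing by the value of 1 read gave whole numbers within 0.01 for 100% of the values above 0, so edgeR 4.0.16 and DESeq2 1.42.0 were also run on whole reads. They called 451 and 471 genes for tSema4B against vector without NE (limma 458), 726 and 745 with NE (691), 368 and 373 for NE in vector cells (316) and 232 and 260 in tSema4B cells (248).

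The limma and edgeR fits were tested on simulated data for the comparison of tSema4B with vector cells without NE, by the adjusted p alone. Changes were placed only in genes above a minimum level. The test thus does not cover DESeq2, the interaction or members with few reads such as Sema3b, Sema3d and Sema7a. The members and gene lists were chosen with earlier results of these data known. Named genes are the 10 members, genes of the other lists called with groups that do not overlap, at most 3 per list and comparison, and the 3 genes most correlated with each called member. Outside this rule Ucp1, Nrp1, Fbln1, the overlapping gene of Sema4c, the untested semaphorins and the other marker genes were named after their values were seen. Identical bases were searched between GENCODE M21 transcripts (GRCm38), and promoters are from RefSeq (GRCm38.p6). Within groups, libraries differed beyond counting error (chi-square per degree of freedom 3.56 to 5.79), so none was counted as the same library deposited again, which does not show that they came from separate cultures.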

Additional observations from a re-analysis of the deposited data

How the results depend on the processing

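Over all alternatives 710 log2 fold changes of members were recomputed, and 678 kept their direction and call. Sema4b and Sema3a were called higher in tSema4B cells in both conditions under every alternative run. With the adjusted p alone as threshold, 2 members, again Sema4b and Sema3a, were called lower after NE in vector cells in place of 0, where 4.78% of all genes were. The other gained call was that of Sema3e, whose difference between tSema4B and vector cells after NE ranged from 0.37 to 1.17 with single libraries left out.

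Signs of 15 uncalled values turned under at least 1 alternative, and the cause was not tested. With single libraries left out, the difference between tSema4B and vector cells ranged for Sema3b from -0.024 to 1.55 without and from -0.49 to 1.06 with NE, for Sema3c from -0.26 to 0.10 without and from -1.27 to 0.15 with NE, and for Sema5a from -0.35 to 0.68 without NE. The NE difference ranged in vector cells from -0.38 to 0.29 for Sema3e and from -0.24 to 0.046 for Sema6d, and in tSema4B cells from -1.30 to 0.12 for Sema3c, from -0.012 to 0.78 for Sema3e and from -0.99 to 0.038 for Sema5a. The interaction ranged from -1.29 to 0.31 for Sema3b, -1.17 to 0.25 for Sema3c, -0.023 to 0.80 for Sema3e, -0.25 to 0.22 for Sema4c and -0.0098 to 1.38 for Sema5a. It also turned to -0.0094 for Sema4c with a pseudocount of 10, and to 0.29 (edgeR) and 0.35 (DESeq2) for Sema3b. DESeq2 called the interaction in 101 genes and edgeR in 4, where limma called 3, and none of them was a member.

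No effect shared by same-numbered replicates was detected, since 0 of 18 such pairs had a correlation of deviations over 0.1 (range -0.0470 to 0.0282). These correlations include counting error and cannot show whether same-numbered cultures were handled together. With the replicate block Sema3a was again called in tSema4B unstimulated cells (1.20, limma adjusted p = 3.20e-08), and the block changed no call of a member. Rescaling the libraries moved the median of all genes by under 0.1. The members other than Sema4b and Sema3a had at most 155 reads in a library, and their intervals were wide.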

Other observations

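The other 5 semaphorins under the minimum for a test were Sema4d, Sema4f, Sema5b, Sema6a and Sema6b. Sema4d, a ligand of plexin B1, was listed with a mean of 3.99 normalised read counts in vector unstimulated cells, 0.795 in tSema4B unstimulated, 1.32 in vector NE and 0 in tSema4B NE cells. Sema6b had 2.65, 0, 5.27 and 0.881 in the same order, and Sema5b had 0.726, 3.59, 0 and 0. The means of Sema4f and Sema6a did not exceed 1.32 and 1.66 in any group. None of the 5 had more than 12 reads in a library, and a count of 0 allows up to 3.

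Markers of other cell types were summed in each library. The summed macrophage markers reached at most 24.6 normalised read counts, with Adgre1, Ptprc and Mrc1 at 0 in every group, and the summed endothelial markers at most 23.3, with Kdr at 0 in every group. The Schwann cell and neuron markers summed to 29.4 to 107, with Sox10 and Rbfox3 at 0 in every group, and the smooth muscle and pericyte markers to 564 to 1349. Of these 4 lists, Csf1r, a macrophage receptor, had 0 to 2 reads per unstimulated library, 15 to 22 reads per vector NE library and 9 to 19 reads per tSema4B NE library. It passed the minimum for a test only through the NE groups, so no test of its NE difference is given. Tubb3, a neuronal tubulin, was called higher in tSema4B than in vector cells without NE (1.40, limma adjusted p = 0.00159), and Tagln, a smooth muscle protein, lower after NE in tSema4B cells (-1.24, limma adjusted p = 4.22e-04). The other tested members of the Tagln list went both ways in that comparison, with Acta2 at -0.75, Cnn1 at 0.64 and Rgs5 at 1.48. None of them was called.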
